A study of Homo sapiens with 24 samples.

Results

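AP-1 is a family of transcription factors, each a pair of proteins joined through leucine zippers, and 8 of its genes are described here: FOS, FOSB, FOSL1, FOSL2, JUN, JUNB, JUND and ATF3. They were taken by name from the 60230 genes of the deposited tables, with earlier results of these data known, and all 8 passed the filter on low counts that left 18242 genes for testing. A FOS protein cannot pair with itself and binds DNA with a JUN protein, JUN proteins can also pair among themselves, and ATF3 pairs with JUN proteins and often acts as a repressor under stress. Growth signals that reach the kinase ERK switch on FOS and other early members within minutes, and ERK also stabilizes the FOS and FOSL1 proteins. JUN is in addition switched on by the stress kinases JNK and p38, and JUND is the member best known for steady expression in resting cells.

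The samples were 24 tumors of AsPC-1, a human line of pancreatic ductal adenocarcinoma, grown in mice, with polyA RNA sequenced from each. Mice received 3 doses by mouth every other day, either of vehicle (5% DMSO and 95% PEG400) or, at 6 mg/kg, of IK-595, which the labels call a molecular glue of MEK and RAF, the kinases upstream of ERK. Vehicle tumors were taken at 2 h and treated tumors at 2, 4, 8, 24 and 48 h after the last dose, with 4 animals in each of the 6 groups. The study's stated purpose was to follow expression after dosing, and the question here is which AP-1 genes moved with the ERK output genes and which rose. All tumors come from 1 cell line, the host strain is not given in the sources used here, and because vehicle tumors exist at 2 h only, drug and time since dosing cannot be told apart at the later times. The 5 comparisons with vehicle share the same 4 vehicle tumors. In a whole tumor, fewer cells that express a gene and less RNA per cell cannot be told apart.

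Depth was 10.52 to 20.64 M counts (M, 1000000 counts) per tumor. Epithelial markers such as EPCAM and KRT8 were present in all tumors, with a summed level of 6510 to 16600 CPM (counts per 1000000) over 10 genes. The sum was 13400 to 16600 CPM at 48 h against 9290 to 12600 in vehicle tumors, without overlap. Of the 10, 5 rose at 48 h and none fell, where 5.52% of all genes tested rose and 4.46% fell. The part of this in the 48 h levels of AP-1 genes was not tested. Host-type markers stood apart in 4 h tumor 2, where 15 fibroblast and pericyte genes summed to 31100 CPM against a group median of 2390, and in 2 h tumor 1, where the same genes summed to 5020 CPM and 11 adipocyte, muscle and red cell genes to 3280 CPM. They were also high in 8 h tumor 4 (5270 CPM of the first list) and, for the second list, in 4 h tumor 4 (1620 CPM), 8 h tumor 2 (1980) and 24 h tumor 4 (2050), where the group medians were 101, 377 and 30.7. Without these 6 tumors, which leaves 2 at 4 h and 2 at 8 h, 5, 5, 4, 3 and 4 members were called against vehicle, in place of 5, 4, 5, 3 and 3. The mean of 10 MAPK output genes, which ERK drives (CCND1, DUSP4 and DUSP6, EPHA2 and EPHA4, ETV4 and ETV5, SPRY2 and SPRY4, PHLDA1), was 6.52 in vehicle tumors and 4.11, 2.96, 2.74, 5.56 and 6.15 at 2, 4, 8, 24 and 48 h on the log2 CPM scale. This low point at 4 to 8 h and partial return by 24 h is the profile against which each AP-1 gene is set below.

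Of the 8 genes, 7 had a promoter in the RefSeq table of GRCh38.p14 (250 bases before to 50 after each listed start), in 8 windows, and FOSL1 was not among them. The stretches before the start are shown for FOS and FOSB, close relatives that both fell, and for JUNB, which fell, and JUND, which rose. All are written 5′ to 3′ on the gene's strand, and capitals mark the core of the cyclic AMP response element (TGACG, or CGTCA where it lies on the other strand), its full palindrome (TGACGTCA) and the TATA box (TATAAA). They lie at chr14:75278578-75278773 on the plus strand for FOS, chr19:45467795-45467994 on the plus strand for FOSB, chr19:12791286-12791485 on the plus strand for JUNB and chr19:18281623-18281822 on the minus strand for JUND.
FOS: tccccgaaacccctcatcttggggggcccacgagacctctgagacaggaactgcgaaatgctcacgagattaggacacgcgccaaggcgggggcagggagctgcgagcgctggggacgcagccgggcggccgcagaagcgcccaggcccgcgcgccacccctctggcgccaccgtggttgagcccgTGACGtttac
FOSB: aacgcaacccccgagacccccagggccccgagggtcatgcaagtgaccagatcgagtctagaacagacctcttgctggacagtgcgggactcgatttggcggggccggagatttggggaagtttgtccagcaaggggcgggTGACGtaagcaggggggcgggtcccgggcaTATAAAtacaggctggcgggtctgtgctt
JUNB: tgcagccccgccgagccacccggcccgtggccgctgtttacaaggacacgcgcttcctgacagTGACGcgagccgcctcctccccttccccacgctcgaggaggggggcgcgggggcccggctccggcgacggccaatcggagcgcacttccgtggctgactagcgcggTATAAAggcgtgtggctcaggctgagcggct
JUND: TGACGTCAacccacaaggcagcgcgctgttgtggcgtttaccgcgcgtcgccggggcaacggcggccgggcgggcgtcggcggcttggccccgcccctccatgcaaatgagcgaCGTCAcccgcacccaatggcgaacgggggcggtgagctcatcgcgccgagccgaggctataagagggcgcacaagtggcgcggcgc

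FOS and FOSB have this element at nearly the same place, TGACG beginning 64 bases before the start of FOS and 60 before that of FOSB. A TATA box begins 33 bases before the start of FOS, just past the stretch printed, and 30 before that of FOSB. JUNB has both as well, at 137 and 31 bases before its start. JUND holds the full palindrome, beginning 200 bases before its start, and no TATAAA. Searched on both strands, TGACG was found in 6 of the 8 windows and in 24.6% of all 35116 promoters of the same length, a count that includes the palindrome. TATAAA was found in 4 of 8 windows and in 11.5% of all promoters. TGACGTCA was found in 1 window (1.85% of all promoters), and TGANTCA, the site that AP-1 itself binds, in 1, that of FOSL2 (7.71%). The CArG box bound by SRF (1.29%) and the ETS site CCGGAAGT (4.14%) were found in none of these windows. Sites more than 250 bases before a start were not searched, so their absence from a gene's wider promoter is not shown. These matches are descriptions of the letters in a short window.

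Levels of different genes are compared in TPM, which is scaled by transcript length, and changes are log2 fold changes ± SE from edgeR on the counts, with p values adjusted by Benjamini-Hochberg over all 18242 genes and a call under 0.05. Against vehicle, 2 of 8 AP-1 genes rose and 3 fell at 2 h, where 13.4% of all genes tested rose and 13.6% fell. At 4 h none rose and 4 fell (all genes, 6.74% and 8.39%). At 8 h 1 rose and 4 fell (20.6% and 23.7%), at 24 h none rose and 3 fell (13.7% and 13.8%), and at 48 h 2 rose and 1 fell (5.52% and 4.46%). The median change of the 8 genes was -0.43, -0.91, -0.93, -0.19 and 0.37 at the 5 times, where the median of all genes lay between -0.01 and 0.07. A test over all 5 times together called 6 of 8, against 49.8% of all genes, and left out FOSL2 (adjusted p = 0.088) and ATF3 (adjusted p = 0.0942). Scaling shifted the split of all calls: at 2 h 49.6% of called genes had risen, against 29.5% with limma on log2(TPM + 1), and at 8 h 46.5%, against 27.8% on log2(TPM + 1) and 58.4% with upper-quartile scaling, which at 24 h gave 3077 higher and 2050 lower genes in place of 2493 and 2518.

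**Figure D1:**
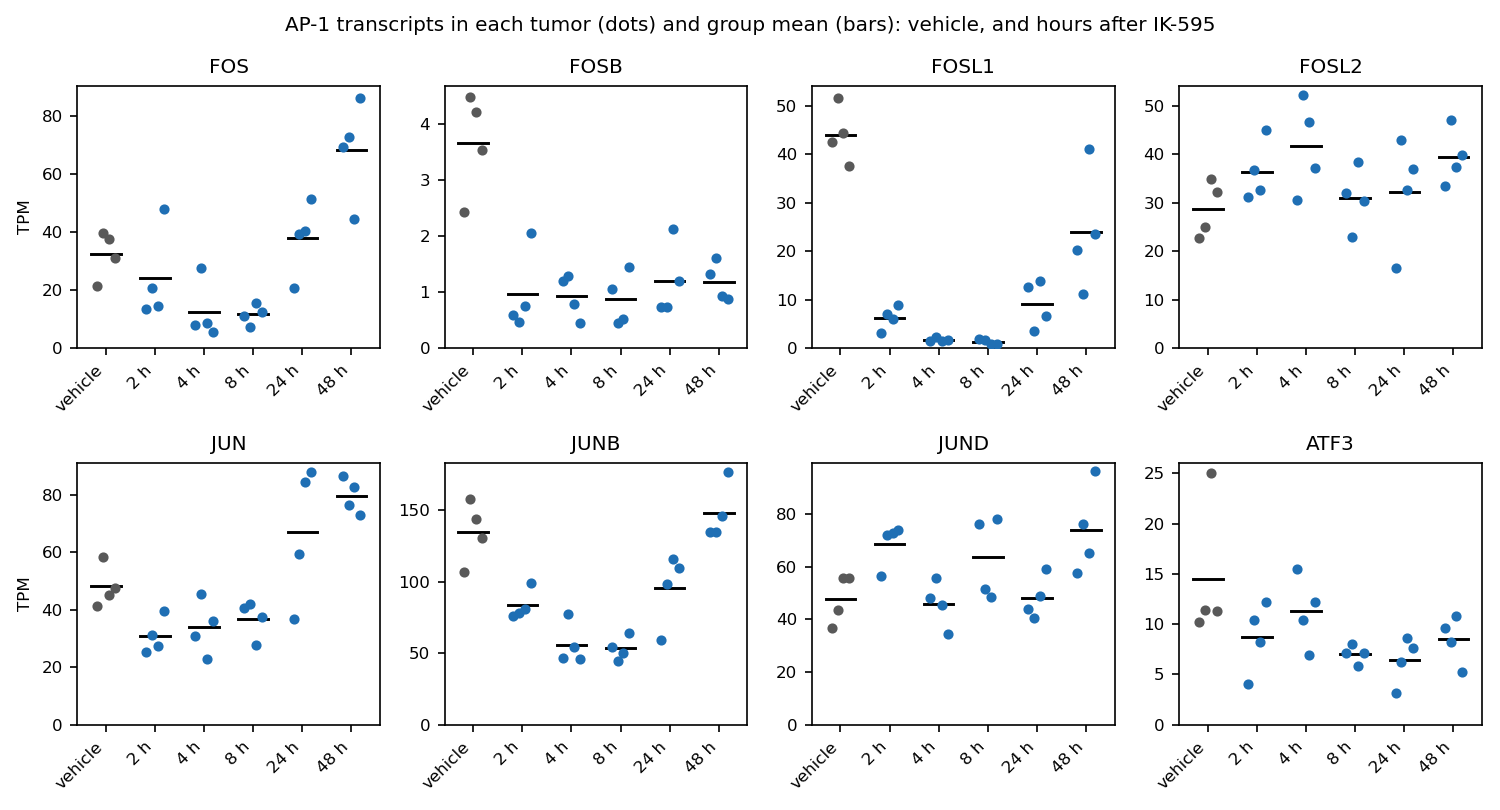
TPM of the 8 AP-1 genes in each of 24 tumors (dots) with group means (bars), for vehicle tumors and for tumors 2 to 48 h after the last IK-595 dose. FOSL1 drops from a vehicle mean of 43.9 to 1.25 TPM at 8 h, and FOSB stays low at every treated time. FOS, JUN, JUNB and JUND have their highest means at 48 h, JUNB and JUND by small margins.

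FOSL1, which encodes FRA1, the FOS-family protein most often linked to ERK activity and invasion in carcinoma cells, fell furthest (ENSG00000175592.9, chromosome 11 from 65892049 to 65900573, minus strand, GRCh38). It stood at 42.5, 51.5, 44.3 and 37.5 TPM in the 4 vehicle tumors and at 3.18, 7.11, 5.93 and 8.89 TPM at 2 h. Every 2 h tumor was thus below every vehicle tumor. The level then was 1.35, 2.29, 1.43 and 1.70 TPM at 4 h and 1.79, 1.65, 0.797 and 0.756 TPM at 8 h. These 8 tumors all lay below the lowest 2 h tumor. At 24 h the tumors held 12.6, 3.53, 13.9 and 6.59 TPM, and at 48 h 20.3, 11.1, 41.0 and 23.5 TPM, so that 1 tumor of 48 h reached into the vehicle range. FOSL1 changed by -2.60 ± 0.45 at 2 h (adjusted p = 0.00042), -4.83 ± 0.52 at 4 h (1.26e-06), -4.74 ± 0.52 at 8 h (6.35e-07) and -1.98 ± 0.44 at 24 h (0.00243). In linear terms, the 4 h level was 28.5-fold lower. All 4 calls were kept on leaving out any 1 tumor of the groups compared. At 48 h the difference was -0.77 ± 0.42 (adjusted p = 0.291), which did not pass.

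Between successive times FOSL1 fell again from 2 to 4 h (-2.23 ± 0.49, adjusted p = 0.00626), differed by 0.09 ± 0.53 from 4 to 8 h (0.915), and rose from 8 to 24 h (2.76 ± 0.49, adjusted p = 0.00121). From 24 to 48 h the difference of 1.21 ± 0.43 did not pass (0.117).

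FOS, the founding member and a classic early target of growth factor signaling, followed a shallower course (ENSG00000170345.10, chromosome 14 from 75278774 to 75282230, plus strand). It stood at 21.3, 39.7, 37.5 and 31.1 TPM in vehicle tumors and at 13.3, 20.7, 14.5 and 47.9 TPM at 2 h. The first 3 of these 2 h tumors lay below all vehicle tumors and the last above all of them. At 4 h FOS was at 8.11, 27.5, 8.57 and 5.64 TPM and at 8 h at 11.1, 7.18, 15.4 and 12.6 TPM. All 8 h tumors were below the vehicle tumors, as were the 4 h tumors except tumor 2. At 24 h the levels were 20.7, 39.3, 40.3 and 51.5 TPM, from just below to above the vehicle range, and at 48 h they were 69.4, 72.9, 44.5 and 86.4 TPM, above every vehicle tumor.

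FOS fell at 4 h (-1.38 ± 0.46, adjusted p = 0.0479) and at 8 h (-1.23 ± 0.46, 0.0349) and was called at no other time. The differences were -0.21 ± 0.45 at 2 h (0.772), 0.17 ± 0.45 at 24 h (0.815) and 1.10 ± 0.45 at 48 h (0.139). Both calls are fragile, since that of 4 h was lost on leaving out any of 7 of the 8 tumors and that of 8 h on leaving out any of 6. The 4 h tumor in which FOS was high, tumor 2, is the one with 31100 CPM of fibroblast and pericyte RNA. Summed over those 15 genes, the range was 1060 to 2160 CPM in vehicle tumors, 1080 to 5020 at 2 h, 929 to 31100 at 4 h, 1410 to 5270 at 8 h, 1250 to 3570 at 24 h and 880 to 1880 at 48 h. Of the 15, 4 rose at 4 h, where 6.74% of all genes rose. None of the 15 had a median of 0. Without that tumor the change of FOS at 4 h was -2.11 ± 0.41 (adjusted p = 0.00129). Without all 6 tumors high in host-type markers FOS was not called at 8 h (-1.03 ± 0.40, 0.0517). It was called at 48 h (1.10 ± 0.31, 0.0321), but none of the 6 is a vehicle or 48 h tumor. The size of that change was the same as with all tumors, and the SE was smaller. The fit of the compared groups alone also called it (1.10 ± 0.23, 0.0123), and 3 of 13 other settings did so in all. The part of host RNA in the level of FOS was not otherwise tested.

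FOSB, a close relative of FOS that is induced by the same signals, fell and stayed low (ENSG00000125740.14, chromosome 19 from 45467995 to 45475179, plus strand). It was the least abundant member, at 2.43, 4.48, 4.22 and 3.53 TPM in vehicle tumors. The 20 treated tumors held 0.441 to 2.13 TPM, with group means of 0.96, 0.93, 0.867, 1.20 and 1.18 from 2 to 48 h, and none reached the lowest vehicle tumor. Its fall passed the test every time: -1.75 ± 0.43 at 2 h (adjusted p = 0.0049), -2.14 ± 0.44 at 4 h (0.00141) and -2.29 ± 0.44 at 8 h (0.000262), then -2.03 ± 0.44 at 24 h (0.00163) and -1.62 ± 0.43 at 48 h (0.0158). The calls from 2 to 24 h were kept on leaving out any 1 tumor, and that of 48 h did not hold on removal of vehicle tumor 2 or of tumor 2 or 4 of 48 h (adjusted p up to 0.0748). No difference between successive treated times passed, the largest being 0.41 ± 0.43 from 24 to 48 h (0.615). FOSB overlaps ERCC1, a DNA repair gene on the other strand with a mean of 29.9 CPM. ERCC1 fell too, by 0.42 ± 0.15 at 2 h and 0.73 ± 0.15 at 8 h, and as the use of strand in counting is not given in the sources used here, the share of its reads counted for FOSB is not known.

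FOSL2, which encodes FRA2, did not fall at any time (ENSG00000075426.12, chromosome 2 from 28392448 to 28417312, plus strand). Vehicle tumors held 22.7, 25.0, 34.8 and 32.3 TPM, 2 h tumors 31.2, 36.7, 32.7 and 44.9 TPM, and 4 h tumors 30.5, 52.3, 46.6 and 37.2 TPM. At 8, 24 and 48 h the lowest and highest tumors were 23.0 and 38.4, 16.6 and 42.9, and 33.5 and 47.1 TPM. Every treated group overlapped the vehicle group. FOSL2 rose at 2 h (0.61 ± 0.19, adjusted p = 0.0232), a call lost on leaving out any of 4 of the 8 tumors and on log2(TPM + 1) with limma, where the change was 0.34 (0.318). The later differences from vehicle were 0.48 ± 0.19 at 4 h (0.0942) and 0.43 ± 0.19 at 8 h (0.0742), followed by 0.28 ± 0.19 at 24 h (0.289) and 0.57 ± 0.19 at 48 h (0.0616). Of 13 other settings, 6 called FOSL2 higher at 8 h (DESeq2 adjusted p = 0.0475) and 6 at 48 h (DESeq2 adjusted p = 0.0311), as did 2 at 4 h. A noncoding gene within its intron and another on the opposite strand overlap FOSL2.

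**Figure D2:**
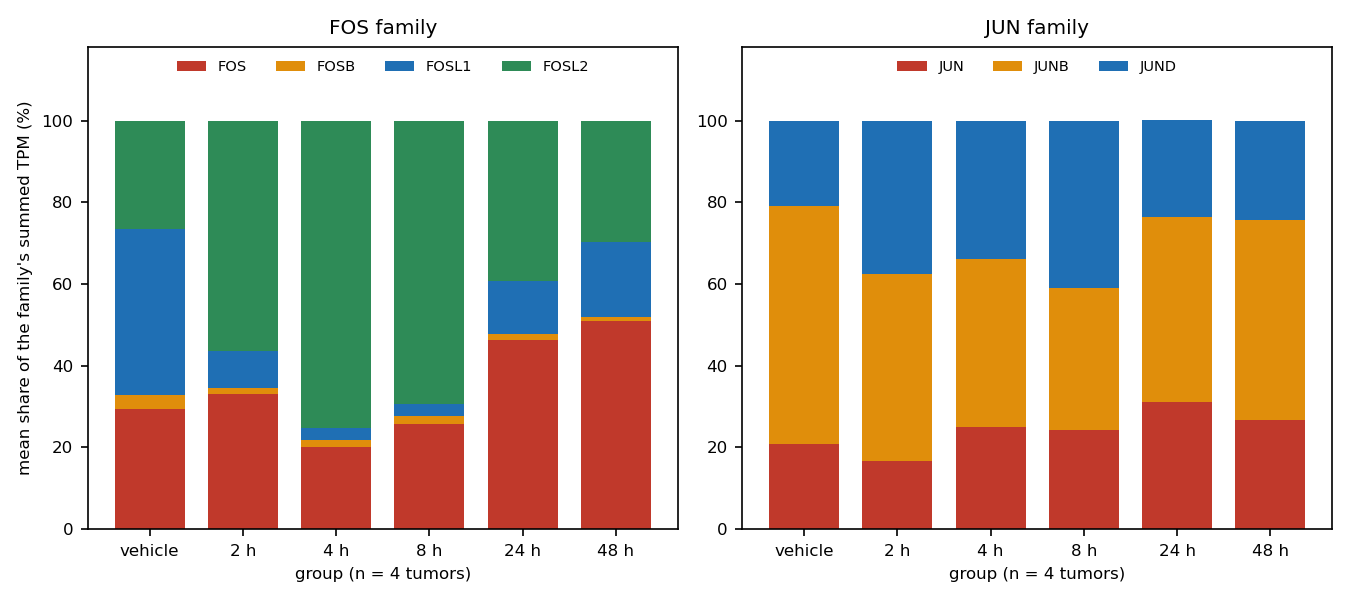
Mean share of each gene in the summed TPM of the FOS family (FOS, FOSB, FOSL1, FOSL2) and of the JUN family (JUN, JUNB, JUND), n = 4 tumors per group. FOSL1 makes up 40.7% of FOS-family TPM in vehicle tumors and 3.04% at 8 h, while FOSL2 goes from 26.5% to 69.4%.

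As members fell by unequal amounts, the mixture of FOS-family transcripts changed over time, described here as shares of the family's summed TPM with no test. In vehicle tumors the family summed to 109 ± 15.3 TPM (SD, n = 4), of which FOSL1 made up 40.7% ± 5.57, FOS 29.4% ± 3.86, FOSL2 26.5% ± 4.45 and FOSB 3.33% ± 0.42. At 4 h the sum was 56.7 ± 19.1 TPM, and FOSL2 made up 75.2% ± 9.10 of it and FOSL1 3.08% ± 0.58. The 4 h shares of FOSL2, 62.7 to 82.7% in single tumors, lay above all vehicle shares, 20.7 to 30.9%. At 8 h FOSL2 made up 69.4% ± 1.69 of 44.6 ± 9.40 TPM. By 48 h the sum was 133 ± 12.5 TPM, and FOS was now the largest part at 51.0% ± 10.1, ahead of FOSL2 at 29.8% ± 4.15 and FOSL1 at 18.3% ± 10.5. The family total at 48 h, 124 to 151 TPM, was thus above the vehicle range of 88.9 to 121 TPM, as the epithelial marker sum was, with FOS where FOSL1 had been the largest part.

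JUNB, a partner of FOS proteins that is itself an early response gene, was the most abundant member in vehicle tumors and moved with the MAPK output genes over a smaller range (ENSG00000171223.6, chromosome 19 from 12791496 to 12793315, plus strand). Vehicle tumors held 107, 158, 144 and 131 TPM and 2 h tumors 76.3, 78.1, 81.2 and 99.2 TPM, with no overlap in TPM. At 4 h the levels were 46.4, 77.2, 54.2 and 46.1 TPM and at 8 h 54.6, 44.7, 49.8 and 64.2 TPM. Apart from 4 h tumor 2, these lay below all 2 h tumors. At 24 h the tumors held 59.5, 98.5, 116 and 110 TPM, which overlaps the vehicle range, and at 48 h 135, 135, 146 and 177 TPM. JUNB fell at 2 h (-0.63 ± 0.18, adjusted p = 0.0152), 4 h (-1.31 ± 0.19, 2.85e-05) and 8 h (-1.17 ± 0.19, 3.19e-05). The calls of 4 and 8 h were kept on leaving out any 1 tumor, and that of 2 h was lost without vehicle tumor 2 (0.0628). Differences were -0.47 ± 0.18 at 24 h (0.057), where 5 of 13 other settings made the call, and 0.17 ± 0.18 at 48 h (0.638).

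Between successive times JUNB fell from 2 to 4 h (-0.68 ± 0.18, adjusted p = 0.0179), rose from 8 to 24 h (0.70 ± 0.19, 0.022) and rose from 24 to 48 h (0.65 ± 0.18, 0.0477). These 3 calls were lost on leaving out 3, 4 and 7 of the 8 tumors, in that order. JUNB overlaps HOOK2 on the opposite strand, a gene of mean 115 CPM. HOOK2 rose by 1.25 ± 0.27 at 2 h and 1.39 ± 0.27 at 8 h, both times at which JUNB fell, and also at 24 h (1.12 ± 0.27) and 48 h (1.03 ± 0.27). It differed by 0.45 ± 0.27 at 4 h (0.272), and from 2 to 4 h it fell (-0.80 ± 0.27, 0.0477), as JUNB did.

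JUN is the first JUN protein described and a target of JNK (ENSG00000177606.8, chromosome 1 from 58780788 to 58784327, minus strand). The edgeR fit of all 24 tumors after the low-count filter called it lower at no time, and higher than vehicle at 48 h. It stood at 41.4, 58.4, 45.2 and 47.4 TPM in vehicle tumors and 25.4, 31.1, 27.4 and 39.4 TPM at 2 h, where no treated tumor reached the vehicle range. The 4 h tumors held 31.0, 45.5, 22.8 and 36.1 TPM and the 8 h tumors 40.6, 42.0, 27.7 and 37.3 TPM. At 24 h JUN stood at 36.8, 59.3, 84.5 and 88.0 TPM. All 3 of these groups overlapped vehicle. The 48 h tumors held 86.7, 76.6, 82.7 and 72.9 TPM, all above the highest vehicle tumor. JUN rose at 48 h (0.78 ± 0.21, adjusted p = 0.0195), a call that removal of vehicle tumor 1, 3 or 4 ended (up to 0.0889), as did limma on log2(TPM + 1) (0.0673). The earlier differences did not pass, at -0.53 ± 0.21 at 2 h (0.0651) and -0.52 ± 0.21 at 4 h (0.102), then -0.18 ± 0.21 at 8 h (0.517) and 0.49 ± 0.21 at 24 h (0.0887). JUN was called lower at 2 h without 2 h tumor 4 (-0.67 ± 0.23, 0.0438) and at 4 h without 4 h tumor 2 (-0.71 ± 0.21, 0.0282), and higher at 24 h without 24 h tumor 1 (0.61 ± 0.22, 0.0489). With no tumor removed, JUN was called lower at 2 h with no low-count filter (-0.637 ± 0.195, 0.0283). The fit of the compared groups alone also called that fall (-0.536 ± 0.159, 0.0227). Upper-quartile scaling called JUN higher at 24 h (0.567 ± 0.202, 0.0394).

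JUND, the JUN protein most often found in quiescent cells and one that restrains RAS-driven growth in some settings, was the member that rose most often (ENSG00000130522.6, chromosome 19 from 18279760 to 18281622, minus strand). Vehicle tumors held 36.5, 43.3, 55.7 and 55.8 TPM and 2 h tumors 56.5, 72.0, 72.6 and 73.9 TPM. The 2 h tumors were all above the vehicle tumors in TPM, by a narrow margin. The 4 h tumors held 48.0, 55.6, 45.5 and 34.4 TPM, none above the vehicle range. At 8 h the levels were 76.1, 51.6, 48.3 and 78.0 TPM, at 24 h 43.8, 40.3, 48.9 and 59.1 TPM and at 48 h 57.4, 76.2, 65.1 and 96.4 TPM. At 8 h 2 of the 4 tumors were above the vehicle range, at 24 h 1 was, and at 48 h all were. JUND rose at 2 h (0.65 ± 0.18, adjusted p = 0.0105), 8 h (0.65 ± 0.18, 0.00543) and 48 h (0.70 ± 0.18, 0.013), and differed by -0.04 ± 0.18 at 4 h (0.902) and 0.10 ± 0.18 at 24 h (0.717). It fell from 2 to 4 h (-0.69 ± 0.18, 0.0143) and rose from 4 to 8 h (0.69 ± 0.18, 0.00806).

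The calls of JUND at 8 h against vehicle and against 4 h were kept on leaving out any 1 tumor. Without the 6 tumors high in host-type markers the rise from 4 to 8 h was 0.69 ± 0.24 and did not pass (0.163). That setting leaves 2 tumors against 2, and 0 of 18896 genes tested passed in either direction, so the lost call is not particular to JUND. The fall from 2 to 4 h did not pass without 2 h tumor 2 (0.0515) or 4 h tumor 4 (0.0584). That of 2 h rested on vehicle tumor 1 (0.0532 without it) and that of 48 h on vehicle tumor 1 and 48 h tumor 4 (up to 0.0667 without either). With limma on log2(TPM + 1) none of these calls of JUND passed, the changes being 0.53 at 2 h (0.0573), 0.39 at 8 h (0.121) and 0.61 at 48 h (0.0723). Mitochondrial mRNA took 9.70% of counts in vehicle tumors and 16.0, 11.2, 20.6, 17.8 and 12.1% at the 5 times, and its part in the TPM values was not tested. In the count fit, with those genes left out, the calls of JUND against vehicle were kept.

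In JUN-family shares, JUNB made up 58.3% ± 2.02 (SD, n = 4) of 231 ± 32.5 TPM in vehicle tumors, JUN 20.9% ± 1.93 and JUND 20.8% ± 3.21. At 8 h JUND made up 40.9% ± 3.56 and JUNB 34.9% ± 3.58 of 154 ± 25.8 TPM. At 24 h the share of JUN was 31.1% ± 3.75, and at 48 h the 3 shares were 26.7, 49.0 and 24.3% for JUN, JUNB and JUND, of 302 ± 30.1 TPM. The sum at 48 h, 279 to 346 TPM, lay above the vehicle range of 184 to 259 TPM, again at the time of the high epithelial sum.

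ATF3, a stress-induced member that pairs with JUN proteins, showed no rise (ENSG00000162772.17, chromosome 1 from 212565334 to 212620777, plus strand). Vehicle tumors held 10.2, 11.4, 25.0 and 11.3 TPM, the third far above the rest. Treated tumors held 4.07 to 12.2 TPM at 2 h, 6.94 to 15.5 at 4 h, 5.85 to 7.98 at 8 h, 3.09 to 8.63 at 24 h and 5.28 to 10.8 at 48 h. The 8 and 24 h tumors all lay below the vehicle tumors. ATF3 fell at 24 h (-0.97 ± 0.30, adjusted p = 0.0183), but did not pass when vehicle tumor 3 (-0.77 ± 0.31, 0.0768) or 24 h tumor 1 (-0.80 ± 0.30, 0.0655) was left out. Differences at the other times were -0.33 ± 0.29 at 2 h (0.424) and -0.43 ± 0.29 at 4 h (0.346), then -0.68 ± 0.30 at 8 h (0.0672; called in 4 of 13 other settings) and -0.63 ± 0.30 at 48 h (0.203).

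**Figure D3:**
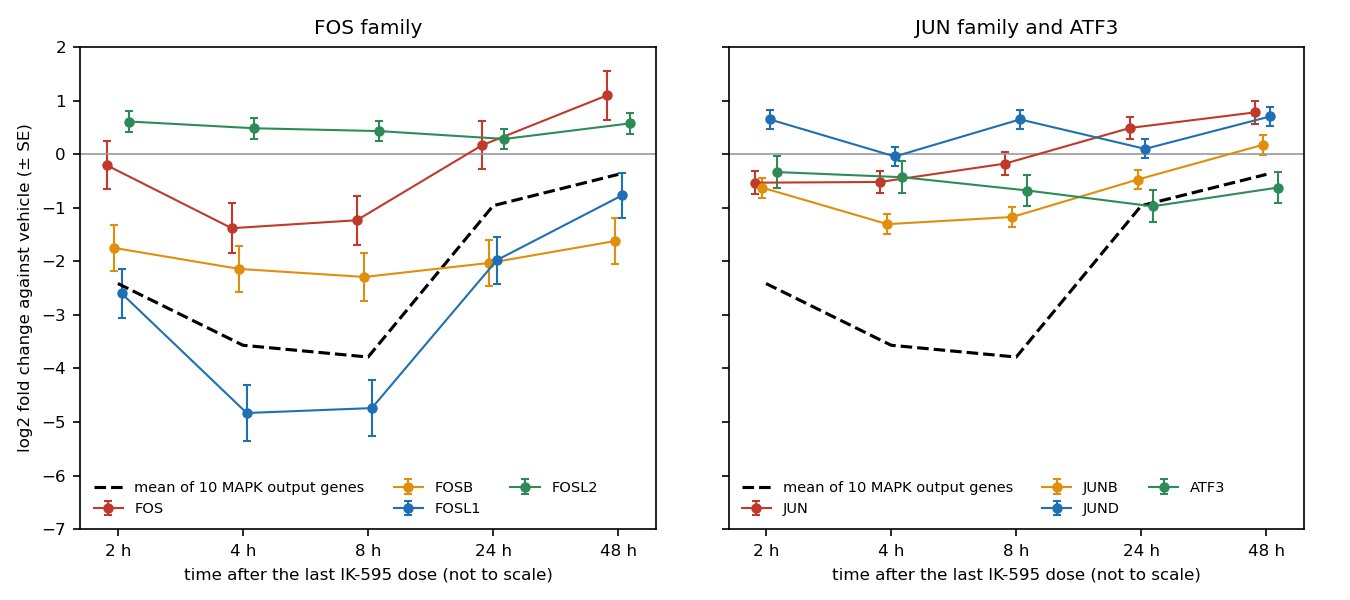
Log2 fold change against vehicle (± SE, edgeR, n = 4 tumors per group) of the FOS family (left) and of the JUN family with ATF3 (right) by time after the last dose, with the mean of 10 MAPK output genes dashed. FOSL1 dips to -4.83 at 4 h and comes back with the dashed line, FOSB stays between -1.62 and -2.29, and JUND and FOSL2 stay near or above 0.

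Between successive treated times the counts were smaller. From 2 to 4 h 3 of 8 members fell (FOSL1, JUNB and JUND) and none rose, where 9.0% of all genes fell and 6.89% rose. From 4 to 8 h JUND alone rose and none fell (11.6% and 15.5%). From 8 to 24 h FOSL1 and JUNB rose and none fell (5.3% and 1.58%), and from 24 to 48 h JUNB alone rose and none fell (2.47% and 1.6%). The split again depended on scaling: the percentage of called genes that had risen was 43.4, 42.7, 77.0 and 60.8 in these 4 steps, 71.5, 17.1, 88.7 and 56.7 with limma on log2(TPM + 1), and 39.9, 56.8, 69.0 and 44.2 with upper-quartile scaling. For the last step but 1, DESeq2 gave 63.8%. From 8 to 24 h FOS did not pass (1.399 ± 0.461, adjusted p = 0.0733), and 6 of 13 other settings called it higher. Every 24 h tumor held more FOS than every 8 h tumor. JUND did not pass from 8 to 24 h (-0.549 ± 0.179, 0.0652), where 5 of 13 other settings called it lower. From 24 to 48 h JUND differed by 0.606 ± 0.179 (0.0553), called higher in 3 of 13. JUN from 8 to 24 h (0.666 ± 0.212, 0.0596) was called higher in 2 of 13.

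In level, the order of the members changed with time. In vehicle tumors JUNB (135 ± 21.7 TPM) was followed by JUN (48.1 ± 7.29), JUND (47.8 ± 9.57) and FOSL1 (43.9 ± 5.82), whose means differed by less than their SDs, then by FOS (32.4 ± 8.25) and FOSL2 (28.7 ± 5.76), also within their spread, ATF3 (14.5 ± 7.02) and FOSB (3.66 ± 0.92). At 8 h JUND (63.5 ± 15.7 TPM) and JUNB (53.3 ± 8.30) did not differ beyond their spread, and FOSL1 (1.25 ± 0.55) stood next to FOSB (0.867 ± 0.47). At 48 h JUNB (148 ± 19.6 TPM) was again first, JUN (79.7 ± 6.13), JUND (73.8 ± 17.0) and FOS (68.3 ± 17.5) lay within their spread of each other, and FOSL2 (39.5 ± 5.70) and FOSL1 (24.0 ± 12.5) came after them.

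How closely each gene tracked the MAPK output genes was measured as the root mean square distance, in log2 units, between their group means over the 6 groups, each centred on its own mean. It is a description with no test, and small changes count as distance because the MAPK profile is deep. FOSL1 was at 0.466, rank 15 of 18232 genes, FOS at 0.806 (rank 100), JUNB at 0.983 (272), FOSB at 1.09 (453) and JUN at 1.19 (839). ATF3 at 1.47 (6876), JUND at 1.58 (11020) and FOSL2 at 1.61 (11887) were the farthest. A gene with no change at all would be at 1.495, the size of the MAPK profile itself. FOSL1 was highest in vehicle tumors, as the MAPK mean was, and its 4 and 8 h levels, the lowest, did not differ by the test. In group means of log2 CPM, FOS, JUN, JUNB and JUND were lowest at 4 h and highest at 48 h, in part by small margins. By edgeR, JUN differed by 0.01 ± 0.21 from 2 to 4 h (adjusted p = 0.972) and JUND by -0.04 ± 0.18 at 4 h against vehicle (0.902). In mean TPM, FOS (11.6) and JUNB (53.3) were lowest at 8 h and JUN (30.8) at 2 h.

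**Figure D4:**
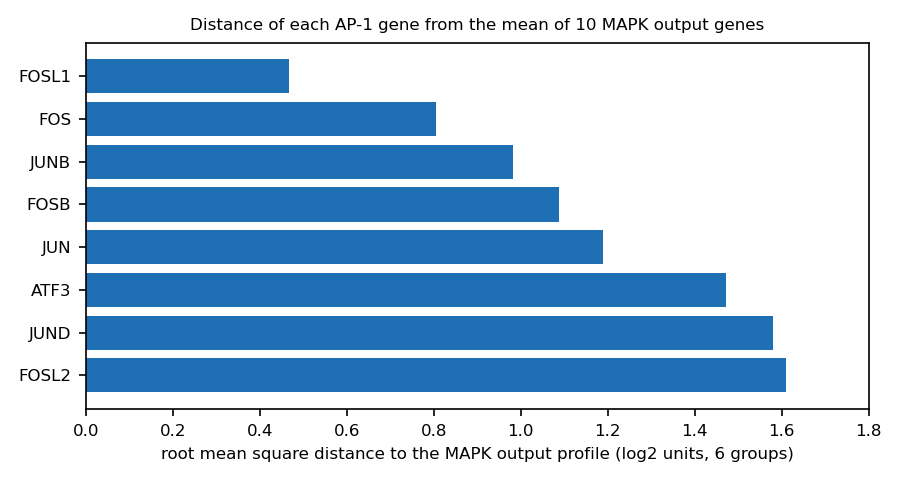
Root mean square distance (log2 units, over 6 group means, each profile centred) of each AP-1 gene from the mean of 10 MAPK output genes. FOSL1 is nearest at 0.466 and FOSL2 farthest at 1.61.

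By the same measure, among 10432 expressed genes other than the members, the profile nearest to FOSL1 was that of KIAA0040 (0.181), followed by the MAPK output gene EPHA2 (0.401) and MYEOV (0.452). Nearest to FOS were RAPGEF3 (0.21) and the noncoding gene ENSG00000204876 (0.235), and nearest to FOSB were the chromatin protein gene HMGA2 (0.23) and IGFBP6 (0.262). JUN lay close to EDN1, the gene of the vessel-constricting peptide endothelin (0.042), then to ZC3H12A (0.181) and VDR (0.182). JUNB lay closest to ARHGEF19 (0.062), LRCH1 (0.072) and MAP2K3, a kinase that activates p38 (0.097). FOSL2 was nearest to EEIG1 (0.043) and JUND to SH3BGRL3 (0.097), and ATF3 to the ribosomal protein genes RPL3 and RPS3A (0.059 each). These distances are over 6 group means from the same 24 tumors.

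Pairs of members were then compared directly, as the difference of their log2(TPM + 1) in each tumor, in 7 pairs at 5 times. In 20 of these 35 comparisons the treated and vehicle tumors did not overlap, with an exact two-sided permutation p of 0.0286, the smallest that 4 against 4 tumors allows. Adjusted over the 35 this is 0.05, which is not under the threshold, so none was called. FOSL1 minus FOSL2 went from 0.61 in vehicle tumors to -3.97 at 4 h, a change of -4.58 ± 0.23, and FOSL1 minus FOS changed by -2.93 ± 0.40 at 8 h and by -2.03 ± 0.55 at 48 h (exact p = 0.0286 each, n = 4 and 4). FOS minus FOSB differed little from vehicle at 4 h (-0.25 ± 0.37, exact p = 0.571) and at 8 h (-0.08 ± 0.23, exact p = 0.8), and was higher by 1.30 ± 0.26 at 24 h and 2.14 ± 0.21 at 48 h (exact p = 0.0286 each). JUN minus JUNB was higher by 0.75 ± 0.20 at 4 h, 0.94 ± 0.18 at 8 h and 0.92 ± 0.12 at 24 h, with no overlap, and by 0.04 ± 0.09 at 2 h (exact p = 0.629). ATF3 minus JUN was lower by 1.45 ± 0.32 at 24 h, without overlap, and FOS minus JUN overlapped vehicle at all 5 times.

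Genes that AP-1 is known to bind and drive, 25 of them tested of 30 listed, were lower through the first day. Of these, 19 fell and 2 rose at 2 h, 16 and 1 at 4 h, 20 and 2 at 8 h, 16 and 2 at 24 h, and 3 and 3 at 48 h, with median changes of -1.40, -0.92, -1.58, -0.99 and -0.41. The background of calls is that given above for all genes. MMP1, a collagenase with a classic AP-1 site, fell at all 5 times, by 6.96 ± 0.79 at 24 h (adjusted p = 4.64e-06). It was still lower by 4.83 ± 0.67 at 48 h (0.000146), when FOSL1 no longer differed by the test. The mean of MMP1 was 19.3 CPM in vehicle tumors, 0.142 at 24 h and 0.677 at 48 h, so the sizes of these falls rest on very few counts. LIF, a cytokine, fell by 2.24 ± 0.18 at 4 h (1.12e-08), and the collagen receptor gene ITGA2 fell by 4.04 ± 0.39 at 8 h (1.4e-07). The cell cycle gene CCND1, which is also in the MAPK output list, fell by 3.12 ± 0.25 at 8 h (5.3e-09) and differed by -0.02 ± 0.23 at 48 h (0.969). HMOX1, which breaks down heme, rose at all times, by 2.16 ± 0.24 at 2 h (2.91e-06) and 1.22 ± 0.23 at 48 h (0.00154). The other risers were VEGFA, the vessel growth factor, at 2, 8, 24 and 48 h (1.71 ± 0.28 at 8 h, 5.85e-05), and the keratin gene KRT17 at 48 h (3.39 ± 0.87, 0.0157), both named after their values were seen. The protease inhibitor gene TIMP1 differed by 0.24 ± 0.18 at 2 h (0.337). The listed genes have regulators beside AP-1, and the part of AP-1 in their change was not tested.

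Other bZIP factors, the proteins with which AP-1 members can also pair, changed in part. Of 21 tested, 2 rose and 2 fell at 2 h, none and 7 at 4 h, 4 and 7 at 8 h, 1 and 4 at 24 h, and none either way at 48 h, where 0 of 21 passed by edgeR. The small MAF genes MAFF (-2.25 ± 0.28, adjusted p = 5.16e-06) and MAFG (-1.24 ± 0.15, 3.62e-06) fell at 4 h. NFE2L2, the master regulator of antioxidant genes, fell by 1.05 ± 0.14 at 8 h (4.22e-06), while its relative NFE2L1 differed by 0.05 ± 0.14 (0.789). DDIT3, a stress factor known as CHOP, fell by 1.10 ± 0.23 at 4 h (0.00194), fell by 0.69 ± 0.23 at 8 h (0.0191) and fell by 1.03 ± 0.23 at 24 h (0.00243), of which only the last is a time at which ATF3 was called.

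Upstream, the 6 genes of SRF, its coactivators and the ternary complex factors that ERK phosphorylates to switch on FOS changed in part: 1 fell at 2 h, 2 fell and 1 rose at both 4 and 8 h, 2 fell at 24 h and none passed at 48 h. The counts of this list and of the kinase list below stand beside 13.6, 8.39, 23.7, 13.8 and 4.46% of all genes that fell at the 5 times. The shares of all genes that rose were 13.4, 6.74, 20.6, 13.7 and 5.52%. ELK3 fell at each time from 2 to 24 h, and fell by 1.52 ± 0.21 at 8 h (adjusted p = 8.17e-06) and ELK1 fell by 0.71 ± 0.15 (0.000467), while ELK4 differed by -0.18 ± 0.15 (0.347). Of 15 genes of the JNK and p38 kinase pathways, which activate JUN and ATF2 proteins, 6 fell and 1 rose at 2 h, 2 fell at 4 h, 7 fell at 8 h, 5 fell and 1 rose at 24 h, and 1 fell and 1 rose at 48 h. MAP2K3 fell by 1.39 ± 0.12 at 4 h (3.71e-08), MAP3K5 fell by 1.66 ± 0.17 at 8 h (1.16e-07), and MAPK13, a p38 kinase, rose at 2 h (0.99 ± 0.28, 0.0129), 24 h (1.03 ± 0.28, 0.00951) and 48 h (1.48 ± 0.28, 0.00164). Kinase activity was not measured.

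Of 22 other immediate early genes tested, 12 fell and 2 rose at 2 h, 11 and none at 4 h, and 14 and 1 at 8 h. At 24 h 3 fell and 2 rose, and at 48 h none fell and 3 rose. All counts in this paragraph stand beside 13.6, 8.39, 23.7, 13.8 and 4.46% of all genes that fell at the 5 times. The shares that rose were 13.4, 6.74, 20.6, 13.7 and 5.52%. EGR1 changed by -3.93 ± 0.51 at 2 h (adjusted p = 3.14e-05), -5.01 ± 0.56 at 8 h (8.13e-07) and -2.26 ± 0.47 at 24 h (0.00153). MYC fell by 3.29 ± 0.27 at 2 h (1.33e-07). The 48 h rises included KLF2 (1.15 ± 0.17, 0.000197) and KLF4 (1.12 ± 0.19, 0.000575), factors of differentiation and quiescence. Of the 13 genes of the ATF4 stress response, of which ATF3 is a known target, 2 fell and 1 rose at 2 h, 7 fell at 4 h, 7 fell and 1 rose at 8 h, 6 fell and 1 rose at 24 h, and 2 fell and 1 rose at 48 h. SLC7A11, the cystine importer, fell by 1.35 ± 0.23 at 24 h (0.000245) and TRIB3 fell by 1.44 ± 0.28 (0.000805). Heat shock genes can respond with FOS, JUN and ATF3 to tissue handling, the part of which was not tested. Of 10 listed, 4 fell and 1 rose at 2 h, 1 and 1 at 4 h, and 7 and 1 at 8 h. At 24 h 6 fell and 1 rose, and at 48 h 1 fell and 1 rose. HSPB1 rose at 2 h (1.08 ± 0.22, 0.00119), 4 h (0.695 ± 0.217, 0.0314) and 48 h (0.82 ± 0.22, 0.0171). It rose further from 4 to 8 h (1.05 ± 0.22, 0.00243), so its fitted level at 8 h was above that of vehicle tumors as well. HSPH1 fell by 1.16 ± 0.16 at 24 h (2.06e-05) and HSPA1A differed by 0.24 ± 0.23 at 2 h (0.457).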

How the data were processed

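PolyA RNA of 24 tumors was sequenced in paired reads of 150 bases, per the labels' protocols. The deposited estimated counts and TPM per gene were made by the authors, per the submitters' processing notes, which name Salmon 0.14.1, bcl2fastq 2.17, FastQC 0.12.1 and the build GRCh38.p13 with no order. The deposited TPM values sum to 1000000 in each tumor. The sources used here do not state the annotation, the strand setting or how reads of the host were handled. Groups come from the titles, because the time tag reads as a vehicle dose for every tumor. No 2 tumors had identical counts.

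Gene IDs were matched to symbols (60219 of 60230) and, for coordinates, to GENCODE 29 (57972). Estimated counts were rounded for testing (59.6% of those above 0 were whole within 0.0015). filterByExpr kept 18242 genes with 99.9% of counts. After TMM scaling, all tumors entered 1 robust fit of the quasi-likelihood model (edgeR 4.0.16, R 4.3.3). The SE is the absolute log2 fold change over the square root of F, with a median of 0.231 at 2 h. P values were adjusted by Benjamini-Hochberg over all genes in each comparison. Log2 CPM used a prior count of 2. Pairs of genes were compared by exact permutation tests. The steps were tested on simulated data.

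The members and the 14 gene lists (190 genes, from general knowledge) were chosen with earlier results of these data known. Named from each list were the 2 called genes with the smallest adjusted p at the time given and the most expressed gene that did not pass, and for each member the 3 genes nearest in profile with a mean log2 CPM of at least 3. Fewer are printed than the rule allows, and a gene named at 1 time may be given at others.

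Alternatives were DESeq2 1.42.0, limma-voom (limma 3.58.1), scaling by RLE or upper quartiles, a low-count filter of 50 counts in 4 tumors or none, limma on log2(TPM + 1) or log2(TPM + 0.1), the compared groups alone, a replicate block, mitochondrial genes left out and leaving out each tumor. The removal of 4 h tumor 2 and 2 h tumor 1 together, and that of all 6 tumors over 1000 CPM of adipocyte, muscle and red cell genes or 5000 CPM of fibroblast and pericyte genes, were chosen after seeing the data. Protein sequences were not analysed here.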

Additional observations from a re-analysis of the deposited data

Results flagged for a closer look

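Among 48 groups of 4 tumors, 2 held a tumor far from the others by Dixon's test at the 95% level, which chance alone flags in about 1 group of 20. FOSB in 2 h tumor 4 was at 2.51 log2 CPM, with the next tumor at 0.96. Without that tumor FOSB still fell at 2 h (-2.39 log2, edgeR adjusted p = 0.000807). ATF3 in vehicle tumor 3 was at 4.65 log2 CPM, with the next at 4.00, and the 24 h call of ATF3 rests on it (adjusted p = 0.0768 without it).

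The change against vehicle also differed between successive times by edgeR (4 tumors against 4). FOSL1 differed by -2.23 log2 from 2 to 4 h and by 2.76 from 8 to 24 h. JUNB differed by -0.68 from 2 to 4 h, by 0.70 from 8 to 24 h and by 0.65 from 24 to 48 h. JUND differed by -0.69 from 2 to 4 h and by 0.69 from 4 to 8 h. The last call of JUNB was lost on leaving out any of 7 of 8 tumors, that of JUND from 2 to 4 h on leaving out 2 of 8, while those of FOSL1 and that of JUND from 4 to 8 h were kept on leaving out any 1 tumor.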

How the results depend on the processing

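Over 1512 values of a member under another setting, 1321 kept their direction and side of the threshold, 78 lost a call, 67 gained one and 46 changed sign, all small differences that were not called. Leaving out 1 tumor at a time, the members called numbered 3 to 5 at 2 h, 3 to 5 at 4 h, 4 to 5 at 8 h, 2 to 4 at 24 h and 1 to 4 at 48 h against vehicle. Between successive times they numbered 1 to 4, 1, 1 to 4 and 0 to 1. Pair differences called numbered 0 with all tumors and 0 to 22 leaving out 1. With all tumors, 20 of 35 comparisons had the smallest p and an adjusted p of 0.05. A few more at the smallest p bring all of them under the threshold together, so this count does not measure how stable single pair differences are.

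With limma on TPM under both pseudocounts, 3 members were called at 2 h, 1 at 48 h, 0 from 4 to 8 h and 0 from 24 to 48 h, and with a pseudocount of 0.1, 1 from 2 to 4 h. With the compared groups alone 5 were called at 48 h and 0 from 24 to 48 h. Without 4 h tumor 2 and 2 h tumor 1 these counts were 5 and 2, and 5 from 8 to 24 h. Without all 6 tumors high in host-type markers 0 were called from 4 to 8 h, 1 from 8 to 24 h and 0 from 24 to 48 h. From 4 to 8 h that setting called 0 of all 18896 genes tested. DESeq2 called 5 from 8 to 24 h and 3 from 24 to 48 h. From 24 to 48 h limma-voom called 2, no low-count filter 2, upper-quartile scaling 0 and the stricter filter 0. The cause was not tested.

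Log2 changes that turned sign follow. FOS at 2 h was 0.012 without both tumors and 0.01 without the 6 (-0.81 to 0.012 leaving out 1), and JUND at 4 h was 0.005 with the stricter filter and 0.012 with the compared groups (-0.142 to 0.101). JUND at 24 h ran from -0.029 to 0.215. From 2 to 4 h JUN was -0.024 with voom, -0.033 with upper quartiles and -0.265 and -0.429 without the 2 and the 6 tumors (-0.174 to 0.223). On TPM with pseudocounts of 1 and 0.1, FOSB was 0.02 and 0.082 (-0.826 to 0.245), FOSL2 0.174 and 0.178 (-0.192 to 0.005) and ATF3 0.372 and 0.416 (-0.306 to 0.114). From 4 to 8 h FOSL1 on TPM was -0.28 and -0.477 (-0.153 to 0.303) and JUNB -0.049 and -0.05. There FOSB was 0.07 with voom (-0.362 to 0.283), FOSL2 0.056 with upper quartiles and 0.001 and 0.086 without the 2 and the 6 tumors (-0.172 to 0.029), and FOS ran from -0.101 to 0.878. From 8 to 24 h FOSL2 was 0.002 on log2(TPM + 1) (-0.282 to 0.006).

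Upper quartiles moved the median change of all genes to 0.21 at 8 h, and log2(TPM + 0.1) to -0.15 at 2 h and -0.19 at 8 h, with -0.27 from 4 to 8 h. Tumors of the same replicate number in different groups deviated from their group means with a mean r of -0.013 (20 of 60 pairs over 0.1). Pairs of unlike number were not computed, so whether the numbers pair tumors was not settled. With a replicate block 5, 5, 6, 4 and 4 members were called against vehicle and 3, 1, 2 and 1 between successive times.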
